A study of Mus musculus with 8 samples.

Results

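The genes described here encode the replicative DNA helicase of the mouse and the proteins that join or activate it: Mcm2, Mcm3, Mcm4, Mcm5, Mcm6, Mcm7, Mcm10, Cdc45, Gins1 and Gins2. They were chosen by symbol, by matching the Entrez identifiers of the count table to a RefSeq gene table, and 10 of 10 had a row among the 27179 rows of that table. All 10 passed the filter on low counts and were among the 13498 genes tested. Counts came from neurosphere cultures, floating clusters grown from neural stem and progenitor cells, each culture raised from a separate C57BL/6 fetus at stage E14.5 in a medium that keeps the cells dividing. The 4 Kat7 deleted fetuses were Kat7lox/loxNesCreT/+ and the 4 Kat7 intact fetuses were Kat7+/+NesCreT/+, so the Cre transgene, which the Nestin gene's regulatory sequence drives in neural precursors, was present in both genotypes. Kat7 encodes a histone acetyltransferase also known as HBO1, a name that comes from its binding to the origin recognition subunit ORC1.

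Replication begins at origins in a pair of steps that the cell cycle keeps apart. In G1 phase the origin recognition complex, CDC6 and CDT1 load MCM2 to MCM7, a ring of related ATPase subunits, onto DNA as an inactive double ring, a step called licensing. In S phase CDC45 and the GINS complex bind each MCM ring to form the CMG helicase, MCM10 activates it, and it unwinds DNA ahead of the polymerases. Transcription of these genes is a known target of E2F factors, and their RNAs are abundant in dividing cells and scarce in cells that have left the cycle. KAT7 has been described in cell lines as a factor that aids MCM loading. In bulk RNA, fewer cycling cells and less RNA per cell cannot be told apart.

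Library totals ran from 10687817 to 18280518 counts in the Kat7 deleted and from 13403953 to 22444359 counts in the Kat7 intact cultures. The replicates were separate fetuses, but litter and genotype cannot be told apart, since each of the 6 litters held 1 genotype. Deleted replicates 3 and 4 were littermates, as were intact replicates 1 and 2. Kat7 itself stood at 31.4%, 0.437%, 16.5% and 0.104% of the intact mean in deleted replicates 1 to 4. The mitochondrial genome supplied 29.9%, 19.0%, 17.1% and 34.4% of all counts in deleted replicates 1 to 4, against 19.0% to 23.5% in intact cultures. Levels are given as CPM, read counts scaled to a common library size by TMM. All 10 markers of neural stem and progenitor cells passed the filter on low counts and 0 were called, with Nes, Vim and Fabp7 abundant. Of the 10, 5 were fitted above 0 and 5 below, with log2 fold changes from -0.55 to 0.89. However, Sox1 stood at 0.190 and 1.98 CPM in deleted replicates 1 and 3, against 12.3 to 31.3 CPM in intact cultures. Markers of blood cells, of microglia and of endothelium each summed to at most 15.7 CPM in any culture, and Hba-a1 and Hbb-bs were at 0 in all 8. Of 2 endothelial markers tested 1 was called lower, Kdr, at 0 to 0.110 CPM in deleted and 0.685 to 1.14 CPM in intact cultures (edgeR adjusted p = 0.0116). Neuron markers summed to 786 to 1222 CPM in deleted and 1022 to 1069 CPM in intact cultures, and oligodendrocyte markers to 198 to 1011 CPM in deleted and 742 to 1019 CPM in intact cultures. Of 5 neuron markers tested 1 was called lower, Elavl3, at 0.551 to 2.16 CPM in deleted and 6.70 to 7.36 CPM in intact cultures (adjusted p = 0.0116). Of 3 oligodendrocyte markers 1 was called lower, Gpr17, at 0.0634 to 0.734 and 1.26 to 4.36 CPM (0.0278). Over all tested genes 2.8% were called lower and 5.1% higher. Fitted above 0 were 2 of 5 neuron markers, up to 4.70 and 1 at an unadjusted edgeR p under 0.05, 1 of 3 oligodendrocyte and 1 of 2 endothelial markers. The part of these markers in the helicase levels was not tested. Of 6 mesenchymal markers 2 were tested and 1, Acta2, was called higher, and their sum was 3.04, 527, 8.07 and 110.2 CPM in deleted replicates 1 to 4, against 1.52 to 2.36 CPM in intact cultures.

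No helicase gene passed the test for a difference between genotypes, and all 10 had a fitted value below 0. The edgeR quasi-likelihood test called 0 of 10 at a Benjamini-Hochberg adjusted p under 0.05, against 7.9% of all tested genes called in either direction and 2.8% called lower. DESeq2 and limma-voom also called 0 of 10. Kat7 itself was not called by the edgeR test either (log2 fold change -3.02 ± 1.10 (SE), adjusted p = 0.128), though its genotypes did not overlap. At an unadjusted p under 0.05, 2 of 10 were lower, against 10.4% of all tested genes. The median log2 fold change, deleted minus intact, was -0.41 over the 10 genes and 0.05 over all tested genes, of which 45% lay below 0. The cultures within the Kat7 deleted genotype did not behave alike: deleted replicates 1 and 4 held 43.5% to 71.2% of the intact mean over the 10 genes, and deleted replicates 2 and 3 held 68.8% to 156%.

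**Figure D1:**
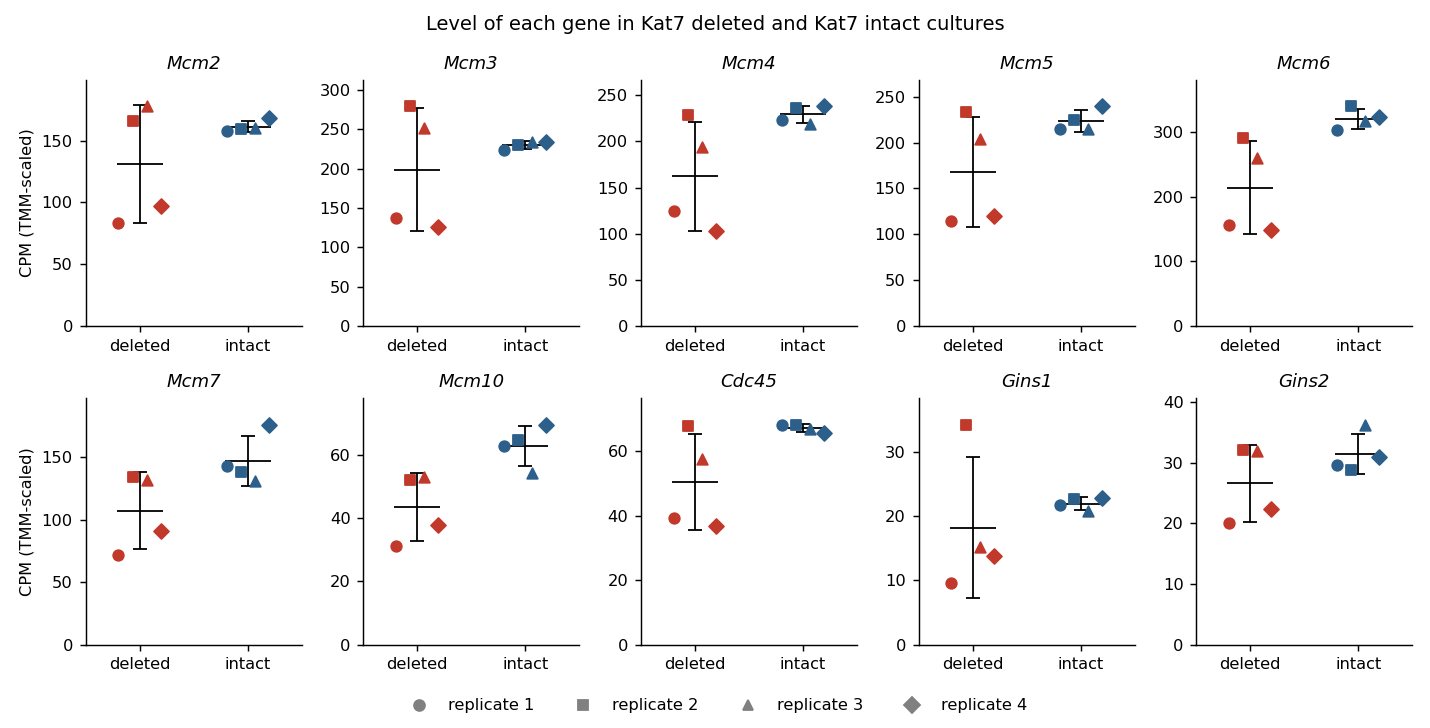
Level of each helicase gene in CPM (TMM-scaled, linear axes from 0) in the 4 Kat7 deleted cultures (red, left) and the 4 Kat7 intact cultures (blue, right); marker shapes give the replicate and black bars the mean and SD. Deleted replicates 1 (circle) and 4 (diamond) lie below every intact culture in all 10 panels, and replicates 2 (square) and 3 (triangle) lie higher.

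Promoter windows are shown for 4 of the ring subunits, those that held an E2F-type word as defined below. E2F control of these genes is established background, and its part in the levels was not tested. The RefSeq promoter table (GRCm38.p6, 250 bases before to 50 bases after a transcript start) held 8 windows for 7 of the 10 genes, with none for Mcm4, Gins1 and Gins2. An E2F-type word, counted as TTTGGCGC, TTTCCCGC, TTTGCCGC or TTTCGCGC on either strand with overlaps allowed, was present in 4 of the 8 windows, those below, and in 2.26% of the 32851 windows in the table. The word CCAAT, on either strand, was present in 8 of 8 windows and in 37.4% of all windows. Capitals mark the E2F-type words.
Mcm3, chr1:20820263-20820562, minus strand: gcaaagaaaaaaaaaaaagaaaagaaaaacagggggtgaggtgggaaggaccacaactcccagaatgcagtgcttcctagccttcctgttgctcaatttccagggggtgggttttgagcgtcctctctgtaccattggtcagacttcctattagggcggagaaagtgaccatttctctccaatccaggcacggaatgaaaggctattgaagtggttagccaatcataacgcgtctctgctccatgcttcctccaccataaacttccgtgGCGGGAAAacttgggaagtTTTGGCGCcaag
Mcm5, chr8:75109259-75109558, plus strand: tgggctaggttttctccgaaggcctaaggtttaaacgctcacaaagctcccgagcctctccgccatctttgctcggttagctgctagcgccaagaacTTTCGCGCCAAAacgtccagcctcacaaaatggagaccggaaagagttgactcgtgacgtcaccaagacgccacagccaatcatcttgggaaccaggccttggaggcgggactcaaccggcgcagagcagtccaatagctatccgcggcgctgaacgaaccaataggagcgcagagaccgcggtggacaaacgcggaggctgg
Mcm6, chr1:128359656-128359955, minus strand: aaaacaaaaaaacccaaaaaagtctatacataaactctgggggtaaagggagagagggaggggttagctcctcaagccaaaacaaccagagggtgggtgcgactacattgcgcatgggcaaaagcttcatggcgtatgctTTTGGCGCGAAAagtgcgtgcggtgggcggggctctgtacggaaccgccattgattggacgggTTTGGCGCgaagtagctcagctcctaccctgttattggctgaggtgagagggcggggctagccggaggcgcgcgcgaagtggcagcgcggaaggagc
Mcm7, chr5:138171834-138172133, minus strand: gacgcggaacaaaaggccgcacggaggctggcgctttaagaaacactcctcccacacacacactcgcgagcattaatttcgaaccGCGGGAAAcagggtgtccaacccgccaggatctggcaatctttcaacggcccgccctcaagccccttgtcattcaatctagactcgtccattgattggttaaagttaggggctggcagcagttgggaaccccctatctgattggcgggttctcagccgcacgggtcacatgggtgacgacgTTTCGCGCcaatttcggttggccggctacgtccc
Mcm6 had 3 such words, of which a pair overlap, and Mcm3, Mcm5 and Mcm7 had 2 each, overlapping in Mcm5. The windows of Mcm2, Mcm10 and Cdc45 and the other window of Mcm7 held none of these words. That of Mcm10 ends in TTTGGCG, so a TTTGGCGC across its edge would not be counted. TTTGAA, the core of the cell-cycle homology region found in promoters of late cell-cycle genes, was present in the windows of Mcm2 and Cdc45, 2 of 8, and in 17.9% of all windows.

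Mcm6 (chromosome 1, 128331575 to 128359705, GRCm38) and Mcm10 (chromosome 2, 4990724 to 5012791) were the pair whose genotypes did not overlap in TMM-scaled CPM. Mcm6, a ring subunit, stood at 157, 291, 259.6 and 149 CPM in deleted replicates 1 to 4, against 303, 340.1, 316 and 322 CPM in intact replicates 1 to 4. All 4 deleted cultures lay below the lowest intact one, deleted replicate 2 by the least. The log2 fold change was -0.58 ± 0.23 (SE), a level 33.2% lower, with a 95% interval of -1.10 to -0.06 and an edgeR adjusted p of 0.149. Mcm10, which activates the assembled helicase, stood at 31.1, 52.2, 53.0 and 38.0 CPM in deleted against 62.9, 64.8, 54.4 and 69.7 CPM in intact cultures. Deleted replicate 3 lay just under intact replicate 3. Its log2 fold change was -0.53 ± 0.19, with an interval of -0.95 to -0.11 and an edgeR adjusted p of 0.114. Across all tested genes, 9.21% had all 4 deleted cultures below all 4 intact ones. Mcm6 and Mcm10 each had p = 0.0286 in an exact permutation test (two-sided, log2 CPM), the smallest value that 70 arrangements of 4 against 4 allow. Without deleted replicate 2, Mcm6 was called at -0.77 (edgeR adjusted p = 0.0411). That fit called 922 genes lower over the whole table, against 378 with every library kept.

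Mcm4 and Mcm7, further subunits of the ring, had fitted values close to that of Mcm10. Mcm4 stood at 124, 229, 193 and 103 CPM in deleted replicates 1 to 4 and at 223, 236, 219 and 238 CPM in intact replicates 1 to 4. Deleted replicate 2 lay within the intact range and the other 3 below it. Mcm4 had a log2 fold change of -0.50 ± 0.24 (95% interval -1.05 to 0.05, edgeR adjusted p = 0.226). Mcm7 stood at 72.0, 134, 131 and 91.2 CPM in deleted cultures, against 142, 138, 130.5 and 176 CPM in intact ones, with the lowest intact culture just under deleted replicates 2 and 3. Its log2 fold change was -0.45 ± 0.21 (-0.94 to 0.03, adjusted p = 0.214). Scaled by library totals alone, Mcm4 and Mcm7 did not overlap between genotypes either. Each then had an exact permutation p of 0.0286, against 0.0857 with TMM scaling. The Mcm7 gene lies opposite Ap4m1, with 321 shared bases among its 4426 exonic bases in GENCODE M21. It also shares 64 exonic bases with Cops6 on the opposite strand, and 88 and 84 with Mir93 and Mir25 on its own strand. The counted length of Mcm7 was 2396 bases, so how much of these overlaps was counted is not known. No strand setting is given in the sources used here, so reads from any counted part cannot be told apart.

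Mcm5, Mcm2 and Mcm3 complete the ring, and their fitted decreases were smaller than those of the other ring subunits. Mcm5 stood at 114, 233, 204 and 120.3 CPM in deleted replicates 1 to 4, against 215, 225, 215 and 239.8 CPM in intact cultures (log2 fold change -0.41 ± 0.24, interval -0.95 to 0.13). Mcm2 stood at 83.7, 166, 178 and 96.9 CPM in deleted cultures against 158, 159, 160.0 and 168 CPM in intact ones, a log2 fold change of -0.30 ± 0.24 (-0.84 to 0.25). The highest of the 8 values for Mcm2 was that of deleted replicate 3. Mcm3 stood at 138, 279.7, 251 and 126 CPM in deleted and at 224, 230.1, 234 and 234 CPM in intact cultures, a log2 fold change of -0.22 ± 0.26 (-0.80 to 0.37). Deleted replicates 2 and 3 both lay above every intact culture for Mcm3, and deleted replicates 1 and 4 far below. Adjusted p-values from edgeR were 0.304 for Mcm5, 0.462 for Mcm2 and 0.634 for Mcm3.

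Cdc45, Gins1 and Gins2 encode the proteins that join the ring to make the CMG helicase. Cdc45 stood at 39.2, 67.8, 57.7 and 37.0 CPM in deleted replicates 1 to 4, against 68.2, 68.3, 67.0 and 65.7 CPM in intact cultures. Its intact values were the tightest of the 10 genes, with a coefficient of variation of 1.79%, and deleted replicate 2 fell inside them. The log2 fold change of Cdc45 was -0.42 ± 0.20 (-0.86 to 0.03, edgeR adjusted p = 0.213). Gins1 stood at 9.57, 34.3, 15.2 and 13.8 CPM in deleted against 21.7, 22.7, 20.8 and 22.8 CPM in intact cultures. Deleted replicate 2 was above all intact cultures and the other 3 deleted cultures below all of them, so the fitted value of -0.28 ± 0.35 (-1.07 to 0.51, adjusted p = 0.651) averages opposite departures. Gins2 stood at 20.03, 32.2, 32.0 and 22.4 CPM in deleted cultures, against 29.7, 28.9, 36.3 and 31.1 CPM in intact ones (-0.24 ± 0.18, -0.65 to 0.17, adjusted p = 0.432). Without deleted replicate 2, Gins1 was called at -0.78 (edgeR adjusted p = 0.0249) and Cdc45 at -0.59 (0.0447), and leaving out no other single library called any of the 10. Leaving out deleted replicate 2 also raised the genes called lower over the whole table to 922, from 378. Cdc45 shares 209 exonic bases with Ufd1 and Gins2 shares 2758 with Gse1 on the opposite strand (GENCODE M21). These come from GENCODE exons of 3506 bases for Cdc45 and 4097 for Gins2, against counted lengths of 2143 and 1038. The whole Gins2 overlap therefore cannot lie in its counted exons, and how much of either overlap was counted is not known. Reads from any counted part cannot be told apart.

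**Figure D2:**
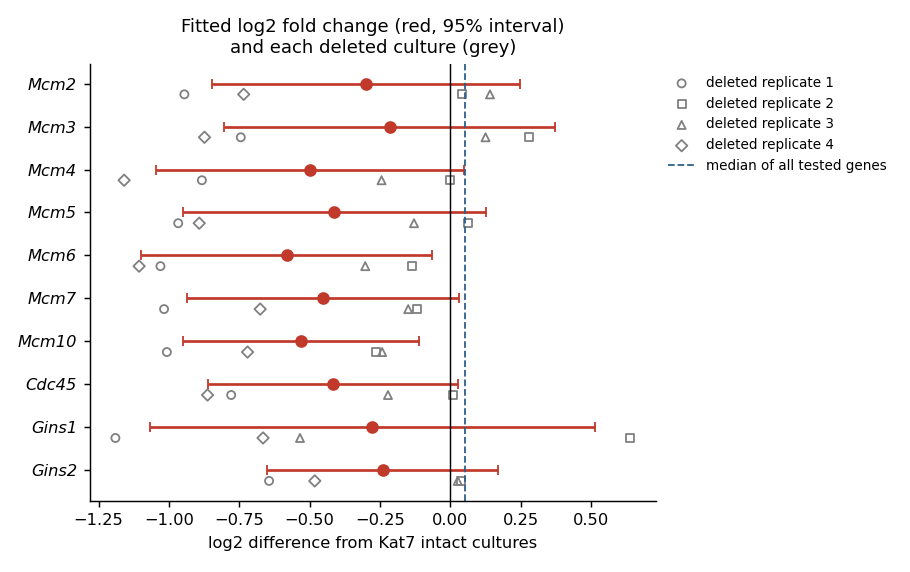
Fitted log2 fold change of each helicase gene, Kat7 deleted minus intact, with its 95% interval from the edgeR fit (red), and the log2 difference of each deleted culture from the intact mean (grey, shape by replicate). The intervals of Mcm6 and Mcm10 lie below 0 and the other 8 cross it, and the grey points of replicates 1 and 4 lie left of those of replicates 2 and 3 in every row.

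The spread among the Kat7 deleted cultures was shared by the 10 genes. Deleted replicates 1 and 4 were both below all 4 intact cultures for 10 of 10 genes, against 22.2% of all tested genes, a feature looked at after the values were seen. The lowest of the 8 cultures was deleted replicate 1 for 6 genes (20.9% of all tested genes) and deleted replicate 4 for the other 4, and the order 1, 4, 3, 2 from low to high held for 4 genes (8.96% of all tested genes). Over the 10 genes the mean log2 difference from the intact mean was -0.92, 0.06, -0.15 and -0.82 in deleted replicates 1 to 4, against -0.04 to 0.07 in intact replicates. As a share of the intact mean, deleted replicate 1 ranged from 43.5% for Gins1 to 63.6% for Gins2, and deleted replicate 4 from 44.7% for Mcm4 to 71.2% for Gins2. Deleted replicate 2 ranged from 83.0% for Mcm10 to 156% for Gins1, and deleted replicate 3 from 68.8% for Gins1 to 110.2% for Mcm2. Summed over the 6 ring subunits, the level was 688, 1334, 1218 and 685 CPM in deleted cultures against 1265, 1328, 1275 and 1378 CPM in intact ones. The SD of log2 CPM was larger in the deleted genotype for 10 of 10 genes, and so it was for 86.6% of all tested genes. Coefficients of variation ran from 23.8% (Gins2) to 60.4% (Gins1) in deleted cultures and from 1.79% to 13.7% (Mcm7) in intact ones.

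Deleted replicate 1 kept the most Kat7 RNA of the deleted cultures and deleted replicate 4 the least, and both were low for the helicase genes. Deleted replicates 3 and 4 were littermates and stood at -0.15 and -0.82 in the mean given above. The part of remaining Kat7 and of litter in the split was not tested. Deleted replicates 1 and 4 had the highest mitochondrial shares, 29.9% and 34.4%, and the part of that share in these levels was not tested. The 6 astrocyte markers summed to 1597, 199.7, 495 and 529 CPM in deleted replicates 1 to 4, against 104 to 165 CPM in intact cultures, so among the deleted cultures this sum ran in the reverse order of the mean of the helicase genes. Of the 6, Aqp4 and Aldoc were called higher by edgeR (adjusted p = 0.00483 and 0.0358), as were 5.1% of all tested genes. Fitted above 0 were 5 of the 6, with 1 below at -0.19, and none was at 0 in any culture. The part of these markers in the helicase levels was not tested. Without deleted replicates 1 and 4 the median log2 fold change of the 10 genes was -0.09, Mcm2, Mcm3, Gins1 and Gins2 were fitted above 0, and Mcm6 and Mcm10 stood at -0.24 and -0.28 (edgeR adjusted p = 0.210 and 0.201). With mitochondrial counts removed before scaling the median over the 10 was -0.44. Without deleted replicates 1 and 3, the pair with more Kat7 RNA, it was -0.35, and 0 of 10 were called in any of these fits.

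Per kilobase of the gene length in the deposited table, ring subunits were more abundant than the proteins that join them. Mcm6 was highest, at 73.8 ± 24.9 CPM per kilobase in deleted and 110.5 ± 5.34 in intact cultures (SD, n = 4 each), followed by Mcm3 at 68.8 ± 27.1 and 79.9 ± 1.71. Mcm5 followed at 49.1 ± 17.5 CPM per kilobase in deleted and 65.3 ± 3.43 in intact cultures, Mcm4 at 45.2 ± 16.4 and 63.9 ± 2.64, and Mcm7 at 44.7 ± 12.8 and 61.2 ± 8.40, 3 neighbours that did not differ beyond their spread. Mcm2 was the lowest of the ring, at 38.9 ± 14.1 in deleted and 47.8 ± 1.39 in intact cultures. Cdc45 at 23.5 ± 6.93 and 31.4 ± 0.563, and Gins2 at 25.7 ± 6.11 and 30.3 ± 3.23, were also alike within their spread. Gins1 and Mcm10 were lowest, at 15.7 ± 9.48 and 12.5 ± 3.09 CPM per kilobase in deleted and 19.0 ± 0.820 and 18.01 ± 1.83 in intact cultures. The place of Gins2 depends on the length used: its log2 level relative to the ring was -1.19 in intact cultures with the deposited length and -2.90 with its longest GENCODE transcript.

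**Figure D3:**
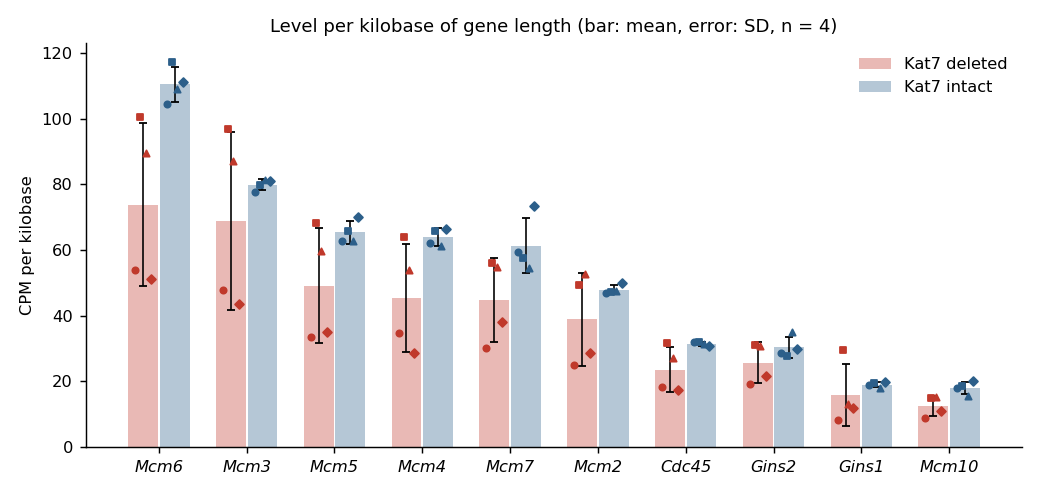
Level of each helicase gene in CPM per kilobase of gene length, in order of the intact mean, for Kat7 deleted (red, left bar) and Kat7 intact cultures (blue, right bar); bars are means, errors SDs over 4 cultures and points single cultures. The 6 ring subunits stand above Cdc45, Gins2, Gins1 and Mcm10 in both genotypes.

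The balance among subunits within a culture differed less between genotypes on average than the levels did, though only narrowly for Mcm3 and Gins2. It was expressed as the log2 level per kilobase minus the mean of Mcm2 to Mcm7 in the same culture, a quantity that does not depend on library scaling. For Mcm6 the balance was 0.58, 0.52, 0.47 and 0.48 in deleted replicates 1 to 4, against 0.65, 0.76, 0.71 and 0.60 in intact cultures, so Mcm6 was a slightly smaller part of the ring transcripts in every deleted culture. For Mcm3 it averaged 0.39 ± 0.10 in deleted and 0.21 ± 0.06 in intact cultures, with deleted replicate 4 (0.25) inside the intact range. Mcm5 held the steadiest place, at -0.08 ± 0.04 in deleted and -0.08 ± 0.01 in intact cultures. Of the 10 genes, Mcm6 was the single one whose balance did not overlap between genotypes. Differences in balance between genotypes ran from -0.17 (Mcm6) to 0.21 (Gins2) on the log2 scale. For Mcm3 and Gins2 they were 0.17 and 0.21, near the size of their log2 fold changes of -0.22 and -0.24. Gins1 spread from -2.30 to -1.24 in deleted cultures, with an SD of 0.48, against 0.04 in intact ones. The balance was planned as a description, but an exact two-sided permutation p was computed for all 10 genes: it was 0.0286 for Mcm6, the smallest value possible, and 0.0571 (Mcm3) to 0.971 (Gins1) for the others, with no adjustment for the 10 comparisons.

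Of the 7 lists on replication and the cell cycle, 2 genes, Pola1 and Tfdp1, were called, both lower. Across all tested genes 2.8% were called lower and 7.9% in either direction. Deleted replicates 1 and 4 both lay below all intact cultures for 8 of 10 licensing factors, 10 of 13 firing and fork factors, 18 of 23 polymerase and clamp genes, 8 of 8 nucleotide supply genes, 1 of 2 MCM relatives, 6 of 13 E2F and RB genes and 16 of 16 mitosis genes, against the 22.2% of all tested genes. These lists were chosen with earlier results of these data known. Licensing factors, which load the ring, had 0 of 10 called, and 10 of 10 were fitted below 0 with a median of -0.23. Of these Orc6, a subunit of the origin recognition complex, had the smallest p, at -0.39 ± 0.14 (edgeR adjusted p = 0.124). Among 13 firing and fork factors 0 were called, with a median of -0.42, and Tipin, of the fork protection complex, stood at -0.75 ± 0.22 (adjusted p = 0.0717). Gins3 and Gins4, encode the other subunits of GINS. Gins3 stood at -0.48 ± 0.19 (adjusted p = 0.150, and called at -0.67 without deleted replicate 2), and Gins4 at 0.05 ± 0.18 (0.879), a value that turned below 0 with library totals alone and without deleted replicate 2. The difference between Gins3 and Gins4 was not tested.

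Among 23 polymerase, clamp and ligase genes 1 was called (2.8% of all tested genes were called lower), with a median of -0.22. Pola1, which encodes the catalytic chain of polymerase alpha, fell to 89.4 ± 21.8 CPM in deleted cultures, against 148 ± 11.2 CPM in intact ones (log2 fold change -0.73 ± 0.18, edgeR adjusted p = 0.0452). Leaving out any library other than deleted replicate 2 ended that call, the adjusted p reaching 0.136 without intact replicate 2. It was also lost with litter as a random block in limma-voom (adjusted p = 0.110), with littermates summed (0.114) and with the replicate block (0.0841). Scaling by library totals alone ended it too (0.0645), and the Pola1 call held in 10 of 22 alternatives. Nucleotide supply genes had 0 of 8 called and 8 of 8 fitted below 0 (median -0.52), and Dck, deoxycytidine kinase, had the smallest p, at -0.59 ± 0.18 (adjusted p = 0.0860). Mcm8 and Mcm9, the 2 tested relatives of the ring subunits, act in recombination and stood at -0.29 ± 0.28 and -0.18 ± 0.14 (adjusted p = 0.537 and 0.453), and their relative Mcmdc2 did not pass the filter on low counts. Of 16 mitosis genes 0 were called, with a median of -0.35, and Kif11, a mitotic kinesin, had the smallest p, at -0.64 ± 0.23 (adjusted p = 0.122).

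The E2F and RB genes, which control transcription of the helicase genes, had 1 of 13 called (2.8% of all tested genes were called lower) and a median of -0.16. Tfdp1, the DNA-binding partner of E2F factors, fell to 77.7 ± 13.3 CPM in deleted cultures, against 124 ± 8.59 CPM in intact ones (log2 fold change -0.68 ± 0.14, edgeR adjusted p = 0.0273), with no overlap of genotypes. Its call was lost without deleted replicate 4 (adjusted p = 0.0544) or without any 1 intact library (up to 0.0912 without intact replicate 2), and likewise with litter as a random block (0.0604), with littermates summed (0.0872) and with the replicate block (0.0564). Scaling by library totals alone ended it too (0.0529), and the Tfdp1 call held in 13 of 22 alternatives. In deleted replicates 1 to 4 the median log2 difference from the intact mean was -0.96, 0.02, -0.14 and -0.88 for the ring subunits, -0.65, 0.07, -0.16 and -0.37 for licensing factors, -1.07, -0.06, -0.28 and -0.75 for nucleotide supply and -1.04, -0.10, 0.05 and -0.77 for mitosis genes. For the E2F and RB genes the values were -0.29, -0.13, -0.06 and -0.47. All of these groups but the last were lowest in deleted replicate 1.

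**Figure D4:**
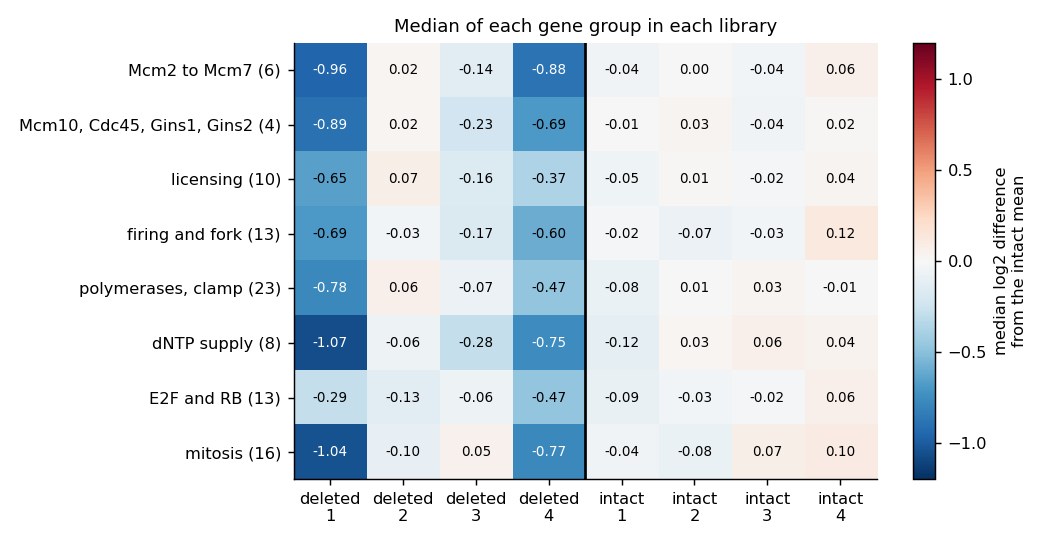
Median log2 difference from the intact mean of each gene group (rows, with the number of genes tested) in the 4 Kat7 deleted and 4 Kat7 intact libraries (columns); blue is lower and red higher, and the numbers are the medians. Deleted replicates 1 and 4 are low for every group, with -0.96 and -0.88 for Mcm2 to Mcm7, and deleted replicates 2 and 3 lie between -0.28 and 0.07 in the 8 rows drawn.

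The genes that lie next to the helicase genes on the chromosome included 4 that rose. The nearest protein-coding gene on each side was taken from RefSeq, which gave 20 neighbours, 19 with a row and 14 tested. Of the 14, 9 were fitted above 0, 4 were called higher (5.1% of all tested genes were) and 0 lower at an adjusted p under 0.05 by edgeR. Hmox1, heme oxygenase, ends 8874 bases upstream of Mcm5 on the same strand and rose to 88.7 ± 34.4 CPM in deleted cultures, against 27.5 ± 3.05 CPM in intact ones (log2 fold change 1.69 ± 0.27, adjusted p = 0.0124). Tpra1, 3470 bases from Mcm2 and head to head with it, rose to 12.7 ± 2.76 CPM in deleted against 6.26 ± 0.504 CPM in intact cultures (1.03 ± 0.19, adjusted p = 0.0198). Abhd12, a lipid hydrolase gene head to head with Gins1, rose by 0.56 ± 0.14 on the log2 scale (adjusted p = 0.0447), and Paqr8, a membrane progesterone receptor gene head to head with Mcm3 at 70235 bases, by 2.54 ± 0.63 (0.0468). Without deleted replicate 1 the value of Paqr8 was 1.72. Each of the 4 lost its call without at least 1 intact library, Hmox1 without intact replicate 2 or 4 (adjusted p up to 0.0615) and the other 3 without any 1 of the 4 (up to 0.0798 for Tpra1, 0.140 for Paqr8 and 0.141 for Abhd12). Abhd12 also lost it without deleted replicate 4 (0.0564) and Paqr8 without deleted replicate 3 (0.0708). Both lost it with library totals alone (0.126 and 0.0667) and with no low-count filter (0.0784 and 0.120). Abhd12 also lost it with upper quartile factors (0.0531) and with sample weights in limma-voom (0.0524). Over 22 alternatives the call held in 19 for Hmox1, 15 for Tpra1, 10 for Paqr8 and 9 for Abhd12. With litter as a random block in limma-voom all 4 calls were lost, at adjusted p of 0.05004 for Hmox1, 0.0526 for Tpra1, 0.0872 for Paqr8 and 0.0713 for Abhd12. Tpra1, Paqr8 and Abhd12 also lost theirs with littermates summed (0.0785, 0.122 and 0.115) and with the replicate block (0.0718, 0.0551 and 0.0792), where Hmox1 kept its call (0.0336 and 0.0416).

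Mcm4 and Prkdc, the catalytic subunit of the DNA repair kinase DNA-PK, lie head to head with 43 bases between them in RefSeq. Prkdc stood at 63.9, 67.2, 54.4 and 47.4 CPM in deleted replicates 1 to 4, against 38.9, 53.1, 37.4 and 45.2 CPM in intact cultures, a log2 fold change of 0.42 ± 0.16 (edgeR adjusted p = 0.142) where Mcm4 had -0.50 ± 0.24. The ratio of Mcm4 to Prkdc CPM was 1.94, 3.41, 3.55 and 2.16 in deleted cultures and 5.73, 4.45, 5.86 and 5.27 in intact ones. All 4 deleted cultures lay below all 4 intact ones, replicates 2 and 3 included. The pair was named by its position, but the ratio was formed after its values were seen and carries no test.

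**Figure D5:**
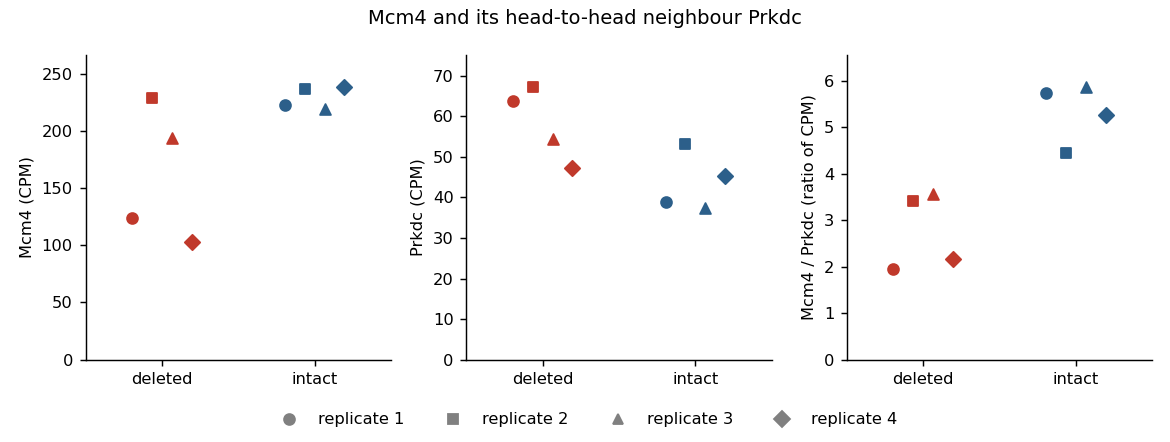
Mcm4 CPM, Prkdc CPM and their ratio (linear axes from 0) in the 4 Kat7 deleted (red, left) and 4 Kat7 intact cultures (blue, right), with marker shape by replicate. Mcm4 and Prkdc overlap between genotypes, while the ratio is 1.94 to 3.55 in deleted and 4.45 to 5.86 in intact cultures.

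The genes whose profiles over the 8 cultures were most like the mean profile of the helicase genes were found by the root-mean-square distance of centred log2 CPM. Outside the group, Haspin, a mitotic histone kinase, was nearest at 0.042 log2 units, followed by Tubb5, a beta tubulin, at 0.046, Fen1, the flap endonuclease of Okazaki fragment processing, at 0.074, Spin4 at 0.076 and Topbp1, which acts in replication initiation and checkpoint signalling, at 0.077. Haspin stood at 11.03, 20.7, 19.1 and 11.4 CPM in deleted replicates 1 to 4, against 19.7, 21.2, 18.9 and 21.4 CPM in intact cultures, so it shared the low values of replicates 1 and 4. None of these 5 was called (edgeR adjusted p from 0.164 for Fen1 to 0.389 for Spin4). Within the group, whose members enter the mean themselves, Mcm5 and Cdc45 lay nearest to the mean at 0.034 and 0.074, and Gins1 and Gins2 farthest at 0.271 and 0.170.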

How the data were processed

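RNA-seq of polyadenylated RNA from 8 mouse neurosphere cultures, 4 Kat7 deleted and 4 Kat7 intact, was analysed. The values are raw, unnormalized read counts by Entrez gene, as deposited by the authors. The tools were CASAVA 1.8.2 and featureCounts and the build mm10, as the submitters' processing notes list them. The aligner and the strand setting are not given in the sources used here. Libraries were read as 100 bp single-end reads, per the labels' protocols. The per-library files equal the columns of the count table.

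Symbols and coordinates came from RefSeq (GRCm38.p6, also called mm10) by Entrez identifier, and strands, exon overlaps and a transcript length from GENCODE M21 on the same build. Genes were tested over the whole table with edgeR 4.0.16 in R 4.3.3: filterByExpr at a minimum count of 10, TMM scaling, robust dispersions, and a quasi-likelihood F test of genotype without covariates. Adjusted p-values are Benjamini-Hochberg over 13498 genes. The SE of a log2 fold change is its size divided by the root of F, and 95% intervals use the t quantile of the same fit. CPM uses TMM-scaled libraries, and log2 CPM a prior count of 2. One read was worth 0.0436 to 0.0918 CPM, and errors are SDs over 4 cultures.

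The genes and lists were chosen with earlier results of these data known. Besides the helicase genes and Kat7, the text names called members of each pathway list or else the one with the smallest p, Gins3, Gins4, the nearest neighbours, and the 5 genes with the most similar profile. Mcm8, Sox1, Acta2, Aqp4, Aldoc, Kdr, Elavl3 and Gpr17 were named after their values were seen. The fit was checked on simulated counts. Alternatives were other scalings, filters, DESeq2 1.42.0, limma 3.58.1 (voom, with and without sample weights and with litter as a random block), summed littermates, a replicate block, and libraries left out. Replicate numbers were not treated as pairs in the main fit, since each litter held 1 genotype. Same-numbered deviations correlated across genes at 0.096 to 0.331, 1 of 4 below 0.1, which does not settle whether numbers pair the samples.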

Additional observations from a re-analysis of the deposited data

How the results depend on the processing

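Over 22 alternatives, 0 of 10 helicase genes were called except without deleted replicate 2, where 3 were (Mcm6, Cdc45 and Gins1), so leaving out 1 library gave 0 to 3. Calls rose over the whole table in that fit too, to 2182 genes with 922 lower, against 1066 with 378 lower in the main fit. The fitted values of Mcm4, Mcm5, Mcm6, Mcm7, Mcm10 and Cdc45 stayed below 0 in all 22. Without deleted replicates 1 and 4, Mcm2 turned to 0.069, Mcm3 to 0.18, Gins1 to 0.14 and Gins2 to 0.0040, and without deleted replicates 1 and 3 Gins1 turned to 0.13; the cause was not tested. Gins4 turned to -0.065 with library totals alone and ran from -0.079 to 0.19 with 1 library left out. Scaling by totals moved the median of all genes to -0.09, against 0.05, and that of the 10 genes to -0.52. With that scaling Mcm4 and Mcm7 also had an exact permutation p of 0.0286, against 0.0857 with TMM.

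The number of genes called, 1066, was 673 with library totals alone (309 higher, 364 lower, against 688 and 378), 2182 by DESeq2, 2283 by limma-voom with sample weights, 414 with litter as a random block, 193 with littermates summed and 2299 without deleted replicates 1 and 3. It ran from 189 (without intact replicate 4) to 2182 (without deleted replicate 2) with 1 library left out. With the replicate block 319 genes and 0 of the 10 helicase genes were called, and 2 of 4 deleted libraries correlated best with their own number, a hint from the data and not the design.

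With the longest GENCODE transcript as length, the intact balance of Mcm4 turned to 0.086 and that of Mcm5 to 0.14, by construction of the lengths, so levels between genes depend on the length used. Exact permutation tests with 1 library left out were not run.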
